A study of Mus musculus with 20 samples.

Results

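MHC class II presentation was followed in sorted spinal cord microglia through 10 genes, all 10 of which were found by symbol among the 16810 genes of the deposited expression table. They were listed by name, with earlier results of these data known. The members are H2-Aa, H2-Ab1 and H2-Eb1 (class II chains), Cd74 (invariant chain), H2-DMa, H2-DMb1 and H2-DMb2 (peptide exchange), Ciita (the class II transactivator), and Cd80 and Cd86 (B7 costimulatory ligands). The table holds RNA-Seq values of 20 samples in 7 groups. All mice were adult heterozygous males carrying eGFP in place of 1 copy of Cx3cr1 (CX3CR1+/eGFP), kept on a C57BL/6 background, and the tissue was a 1 cm piece of thoracic cord from which cells with high eGFP were sorted. The non-injured group (NI) has 3 samples. The injured groups had a lateral hemisection (HS) or a full transection (FT) at T9 and were sampled at 72 h, 1 week and 2 weeks, with 3 samples each except HS at 1 week, which has 2. The eGFP also marks blood monocytes and the macrophages they form, so the sort by itself does not separate these cells from microglia. More mice than libraries entered the RNA preparations, no label says which animals make up a sample, and p-values therefore measure only the spread between these samples.

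Class II molecules are pairs of an alpha and a beta chain that carry peptides of engulfed protein to the cell surface, where CD4 T cells read them. The invariant chain, the product of Cd74, occupies the groove until endosomal proteases remove it, and H2-DM then exchanges its remnant for peptide. CIITA switches the genes on together through the SXY module of their promoters, most strongly after interferon gamma, and CD80 and CD86 give the T cell the costimulatory signal through CD28. Microglia at rest carry little class II, and border macrophages and dendritic cells carry much more.

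The promoters of the class II chains and of the H2-DM beta genes are shown because the Y-box and X-box that serve CIITA lie in them. RefSeq promoter windows on GRCm38.p6 were matched by symbol for 6 of the 10 members (H2-Aa, H2-Eb1, H2-DMa, H2-DMb1, H2-DMb2 and Cd80). They run from 250 bases before to 50 bases after the RefSeq start of the gene. Gene positions given below are from GENCODE vM21, in which H2-DMb1 and H2-DMb2 begin ahead of their stretches printed here. The core TGATTGG of the Y-box was searched on both strands and GCAAC, part of the X-box, was searched 25 to 35 bases ahead of it on the same strand, where the motifs cannot overlap. The stretches run from 50 bases before the Y-box core to 10 bases after it, 5′ to 3′ on the strand of the gene, and capitals mark the cores that were found.
H2-Aa, minus strand, chr17:34287857-34287923: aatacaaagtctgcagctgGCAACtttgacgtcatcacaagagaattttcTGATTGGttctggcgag
H2-Eb1, plus strand, chr17:34305756-34305822: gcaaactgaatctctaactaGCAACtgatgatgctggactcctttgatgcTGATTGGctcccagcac
H2-DMb1, plus strand, chr17:34153078-34153144: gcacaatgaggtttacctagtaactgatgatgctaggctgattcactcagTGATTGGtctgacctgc
H2-DMb2, plus strand, chr17:34145107-34145173: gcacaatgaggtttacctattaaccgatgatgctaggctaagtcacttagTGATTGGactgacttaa

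The Y-box core began 50 bases before the start site in H2-Aa, 61 in H2-Eb1, 63 in H2-DMb1 and 92 in H2-DMb2. GCAAC preceded it by 31 bases in H2-Aa and by 30 in H2-Eb1, and those letters were not at this distance in the H2-DMb1 and H2-DMb2 windows. Of 32851 mouse promoter windows of the same length, 2568 (7.82%) hold TGATTGG on either strand and 34 (0.103%) hold both cores at this spacing, among them H2-Oa, H2-Ob and H2-Eb2 of the same locus. No TGATTGG was in the windows of H2-DMa and Cd80. A match is a description of the letters and not evidence of binding.

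The depth of the libraries ranged from 3872918 to 34099232 reads on genes. Levels are given in CPM, reads per gene divided by the library size as the authors scaled it. A gene was called when the change was at least 2-fold with a Benjamini-Hochberg adjusted p under 0.05 over all 16810 genes in the limma fit of log2(CPM + 0.5), a scale that understates changes of low genes. Because RNA was taken from many cells at once, fewer class II positive cells and less RNA per cell cannot be told apart. The microglia marker genes listed for this report were abundant in every sample, from 201 CPM for Sall1, a transcription factor of microglia, at its lowest.

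Per kilobase of the principal transcript, Cd74 was the most abundant member in NI microglia (1048 ± 53.0 CPM per kb, SD, n = 3). H2-DMa followed at 317 ± 32.1, H2-Aa at 302 ± 25.5, H2-Ab1 at 193 ± 80.7 and H2-Eb1 at 150.1 ± 5.95 CPM per kb. H2-DMa and H2-Aa overlapped between samples, as did H2-Ab1 and H2-Eb1. Cd86 stood at 120.2 ± 28.1 and H2-DMb1 at 107 ± 5.35 CPM per kb, again with overlapping samples. The low members were H2-DMb2 (5.31 ± 0.466), Cd80 (2.69 ± 0.491) and Ciita (1.57 ± 0.255 CPM per kb). Class II chains and the invariant chain varied far more over the 20 samples than the peptide-exchange genes did. The highest CPM was 7.42 times the lowest for H2-Aa, 14.1 times for H2-Ab1, 6.88 times for H2-Eb1 and 9.67 times for Cd74. The same ratio was 1.90 for H2-DMa and 2.03 for H2-DMb1. Reads behind these values numbered at least 159 per sample for each class II chain and for Cd74, and fell to 11 for Cd80, 16 for H2-DMb2 and 21 for Ciita.

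**Figure D1:**
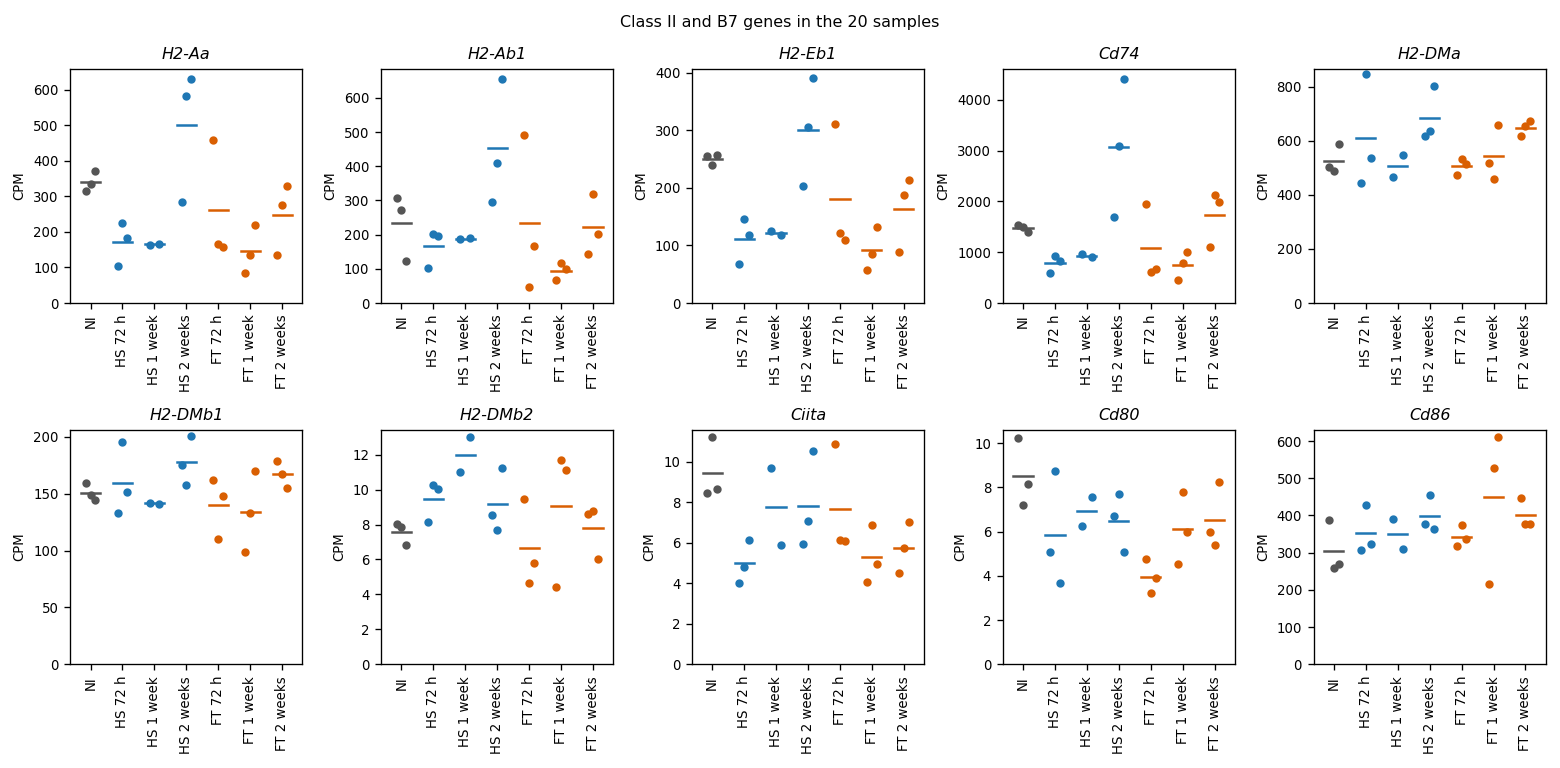
CPM of each of the 10 genes (vertical axes, starting at 0) in every sample of the 7 groups (horizontal axes), with points for samples and bars for group means, NI in gray, HS in blue and FT in orange. H2-Aa, H2-Eb1 and Cd74 lie below NI at 1 week after both injuries and spread upward at 2 weeks after HS, whereas H2-DMa and H2-DMb1 stay at similar heights throughout.

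Among the class II chains, the beta chain gene H2-Eb1 (GRCm38 chr17:34305867-34316674, plus strand) fell at 72 h after HS and at 1 week after FT. Its levels were 255, 239 and 258 CPM in NI and 68.4, 145 and 118 CPM at 72 h after HS, so that the groups did not overlap. At 1 week they were 126 and 118 CPM after HS and 56.7, 84.8 and 133 CPM after FT, again all below NI. At 2 weeks they were 204, 306 and 390.2 CPM after HS, on either side of NI, and 89.2, 188 and 214 CPM after FT, all below NI. The log2 fold change was -1.24 (SE 0.38, adjusted p = 0.0193) at 72 h after HS and -1.53 (SE 0.38, adjusted p = 0.0143) at 1 week after FT. The 72 h call was lost without NI replicate 3 (adjusted p = 0.0564) or without HS 72 h replicate 1 (adjusted p = 0.121), and the 1 week call without NI replicate 3 (adjusted p = 0.0504). At 1 week after HS the difference was -1.04 (SE 0.43, adjusted p = 0.270) and did not pass. In C57BL/6 mice the E alpha gene is defective, so that the product of H2-Eb1 has no usual partner at the surface.

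H2-Aa (chr17:34282744-34287823, minus strand), the alpha chain of the I-A molecule, lay lower in the same groups without passing the test. It measured 316, 334 and 372 CPM in NI, 105, 224 and 182 CPM at 72 h after HS, and 164 and 165 CPM at 1 week after HS. After FT it measured 459, 166 and 157 CPM at 72 h, 85.1, 134 and 218.5 CPM at 1 week, and 135, 276 and 329 CPM at 2 weeks. At 2 weeks after HS it measured 284, 583 and 631 CPM, on either side of NI, with a log2 difference of 0.47. All samples of HS at 72 h and 1 week and of FT at 1 week were below all NI samples. The log2 differences were -1.06 (SE 0.41, adjusted p = 0.0589), -1.04 (SE 0.46, adjusted p = 0.321) and -1.32 (SE 0.41, adjusted p = 0.0551), respectively.

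Against NI, 1 of the 10 members was called at 72 h after HS (H2-Eb1, lower), where 13.4% of all genes were called. No member was called at 1 week after HS (2.18% of all genes) or at 2 weeks after HS (3.23%). After FT, 1 member was called at 72 h (Cd80, lower) with 12.2% of all genes, 1 at 1 week (H2-Eb1, lower) with 4.05%, and 0 at 2 weeks with 4.88%. No member was called higher in any of these 6 comparisons. These counts depend on the scaling: with all columns scaled to 1 total they were 5 at 72 h after HS, 4 at 72 h after FT and 4 at 1 week after FT (22.7%, 19.9% and 5.39% of all genes), and with quantile normalization 3 in each (11.4%, 10.6% and 3.85%), all lower. At an unadjusted p under 0.05 limma gave 2 members for HS at 1 week, 1 for HS at 2 weeks and 1 for FT at 2 weeks, where 12.8%, 16.1% and 19.1% of all genes had such a p, and edgeR and DESeq2 called 0 in each of these groups. The median log2 difference of the 10 members ranged from -0.63 at 1 week after FT to 0.31 at 2 weeks after HS. Over all genes the median was -0.03 and -0.01 in these comparisons, and -0.11 at 72 h after HS, the largest shift from 0.

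**Figure D2:**
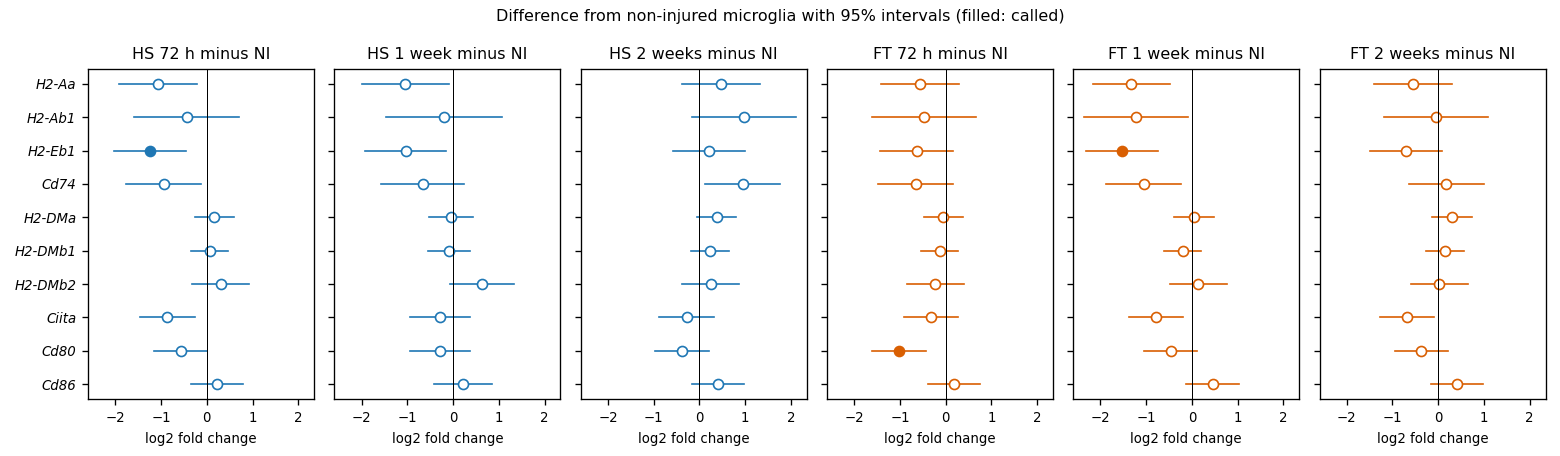
Log2 fold change from NI (horizontal axes) of the 10 genes (rows) in the 6 injured groups (panels), with 95% intervals as lines and filled points where a gene was called. Filled points appear for H2-Eb1 in HS at 72 h (-1.24) and FT at 1 week (-1.53) and for Cd80 in FT at 72 h (-1.02).

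H2-Ab1 (chr17:34257689-34269419, plus strand), the I-A beta chain and partner of H2-Aa, did not track H2-Aa in every library. It measured 306, 272 and 122 CPM in NI and 103, 201 and 196 CPM at 72 h, 187 and 191 CPM at 1 week, and 297, 409.6 and 655 CPM at 2 weeks after HS. After FT it measured 493, 46.4 and 166 CPM at 72 h, 67.7, 117 and 98.6 CPM at 1 week, and 145, 319 and 201 CPM at 2 weeks. Only FT at 1 week lay wholly below NI, with a log2 difference of -1.23 (SE 0.55, adjusted p = 0.225). The ratio of H2-Ab1 to H2-Aa within a sample was 0.279 in FT 72 h replicate 2, 0.329 in NI replicate 3, 0.451 in FT 1 week replicate 3, 0.612 in FT 2 weeks replicate 3 and 0.702 in HS 2 weeks replicate 2. In the other 15 samples it lay between 0.796 and 1.16. The low ratios came from 5 different groups, NI included, and their cause was not tested. H2-Eb1 and H2-Aa kept a much steadier ratio, from 0.525 to 0.807 over all 20 samples. The spread of H2-Ab1 in NI and in FT at 72 h (SD 97.8 and 231 CPM) enters every comparison of this gene. The non-member genes whose log2 level correlated best with the H2-Ab1 to H2-Aa ratio over the 20 samples were Hps1 (Pearson r = 0.93), Alkbh6 (0.92) and Cox6a1 (0.91), a description over samples that share library and depth, from genes picked after the values were seen. Hps1 measured 15.1, 14.2 and 8.73 CPM in NI and 19.97, 5.26 and 16.3 CPM in FT at 72 h, low in the same libraries. Alkbh6 measured 29.5, 0.584 and 32.2 CPM and Cox6a1 239, 28.6 and 238 CPM in FT at 72 h, both lowest in replicate 2. A technical origin of the low values in these libraries was not tested, and it bears on every level and difference given for H2-Ab1.

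**Figure D3:**
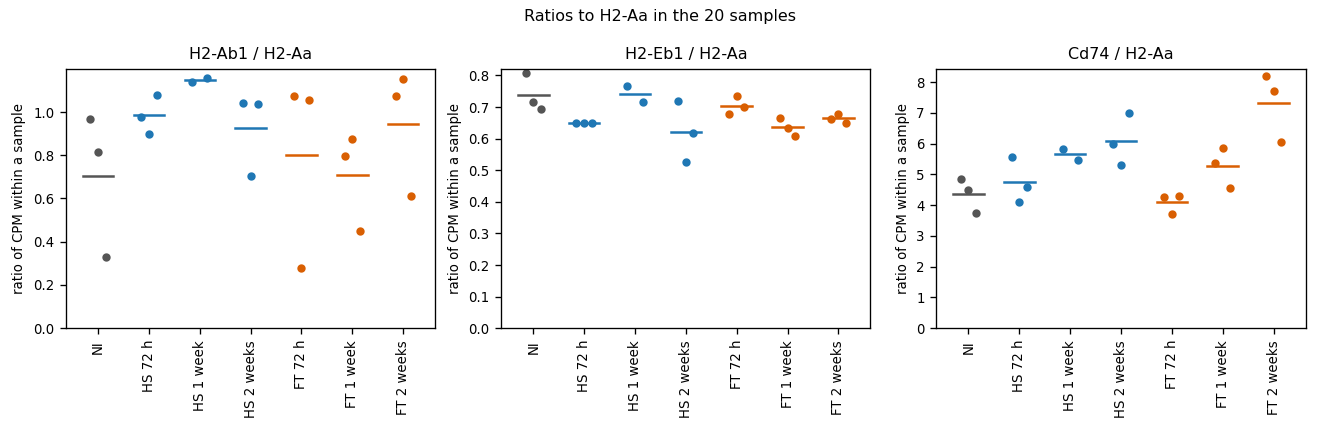
Ratio of CPM within each sample (vertical axes, starting at 0) of H2-Ab1, H2-Eb1 and Cd74 to H2-Aa, by group (horizontal axes), with points for samples and bars for group means. The H2-Ab1 ratio drops to 0.279 and 0.329 in single libraries while the H2-Eb1 ratio stays between 0.525 and 0.807, and the Cd74 ratio is highest at 2 weeks after FT.

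Cd74 (GRCm38 chr18:60803848-60812652, plus strand) was the most abundant member per kilobase in every group, and its highest levels were at 2 weeks after HS. It measured 1535, 1505 and 1393 CPM in NI. After HS it measured 586, 922 and 835 CPM at 72 h, 958 and 905 CPM at 1 week and 1700.0, 3086 and 4415 CPM at 2 weeks. All HS samples at 72 h and 1 week were below NI and all at 2 weeks were above NI. After FT it measured 1959, 620 and 674 CPM at 72 h, 457, 787 and 999 CPM at 1 week and 1106, 2132 and 1988 CPM at 2 weeks, with only the 1 week group wholly below NI. None of these differences from NI passed: the log2 differences were -0.94 (SE 0.39, adjusted p = 0.0788) at 72 h and 0.95 (SE 0.39, adjusted p = 0.213) at 2 weeks after HS, and -1.05 (SE 0.39, adjusted p = 0.126) at 1 week after FT. The ratio of Cd74 to H2-Aa was 4.37 ± 0.571 (SD, n = 3) in NI, 6.09 ± 0.856 (n = 3) at 2 weeks after HS and 7.32 ± 1.13 (n = 3) at 2 weeks after FT. Both 2 week groups and HS at 1 week (5.48 and 5.83) lay wholly above NI (3.74 to 4.86) in this ratio, which was not tested.

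Class II RNA rose between 72 h and 2 weeks after HS. H2-Aa rose by 1.53 on the log2 scale (SE 0.41, adjusted p = 0.0200), from 171 ± 60.2 to 499 ± 188 CPM (SD, n = 3 each). H2-Eb1 rose by 1.45 (SE 0.38, adjusted p = 0.0175), from 111 ± 39.1 to 300.2 ± 93.2 CPM. Cd74 rose by 1.89 (SE 0.39, adjusted p = 0.0033), from 781 ± 174 to 3067 ± 1357 CPM. The samples of both times did not overlap for any of these genes, nor for H2-Ab1, whose log2 difference of 1.43 (SE 0.55, adjusted p = 0.102) did not pass. H2-Ab1 was called, for a count of 4, with the edgeR likelihood ratio test (adjusted p = 0.0473) and in limma with only the 2 groups compared (adjusted p = 0.00844). The 3 calls compare with 4.74% of all genes called between these times, and the 4 of the likelihood ratio test with 6.48%. The Cd74 call held whichever sample was left out, with adjusted p up to 0.0302, whereas those of H2-Aa and H2-Eb1 were lost without HS 72 h replicate 1, HS 2 weeks replicate 2 or HS 2 weeks replicate 3.

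In the 5 remaining comparisons between times no member was called. From 72 h to 1 week after HS the count was 0 where 6.03% of all genes were called, and 0 members had an unadjusted p under 0.05 (26.8% of all genes). From 1 to 2 weeks after HS it was 0 with 0.0119% of all genes, although Cd74, H2-Aa and H2-Eb1 had an unadjusted p under 0.05 (4.69% of all genes), with log2 differences of 1.61 (95% interval 0.70 to 2.53), 1.51 (0.56 to 2.47) and 1.25 (0.36 to 2.13). After FT the counts were 0 from 72 h to 1 week (3.44% of all genes), 0 from 72 h to 2 weeks (3.81%) and 0 from 1 to 2 weeks (0.0714%), with 1, 2 and 3 members at an unadjusted p under 0.05, as had 19.9%, 19.5% and 4.60% of all genes. Cd74 differed by 1.24 (95% interval 0.42 to 2.05) from 1 to 2 weeks after FT and by 0.84 (0.02 to 1.66) from 72 h to 2 weeks. edgeR and DESeq2 also called 0 members in these 5 comparisons. Whether the time course differed between HS and FT was not tested.

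FT at 72 h held 1 library that stood apart. FT 72 h replicate 1 had the highest H2-Aa, H2-Ab1, H2-Eb1, Cd74 and Ciita of its group. The summed level of the class II chains and Cd74 was 3222 CPM in it against 955 and 1107 CPM in the other 2 samples. Without it, H2-Eb1 differed from NI by -1.11 (adjusted p = 0.0398) and Cd74 by -1.19 (adjusted p = 0.0264), both called, and Cd74 rose from 72 h to 2 weeks after FT by 1.37 (adjusted p = 0.0357). With it, the differences from NI were -0.64 (adjusted p = 0.237) for H2-Eb1 and -0.66 (adjusted p = 0.236) for Cd74. This library also had the highest summed monocyte markers (236 CPM) and border-associated macrophage markers (382 CPM) of all 20. The part of those cells in its class II level was not tested.

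No H2-DM gene was called in any comparison. H2-DMa (chr17:34119541-34139101), the alpha chain of the exchange factor, measured 526 ± 53.3 CPM in NI and between 507 ± 30.1 (FT at 72 h) and 686 ± 103 CPM (HS at 2 weeks) in the injured groups. H2-DMb1 (chr17:34153072-34160230), a beta chain, measured 150.8 ± 7.51 CPM in NI and between 134 ± 35.3 (FT at 1 week) and 178 ± 21.9 CPM (HS at 2 weeks). The 95% intervals of the H2-DMa and H2-DMb1 differences from NI all lay between -0.61 and 0.81 on the log2 scale. H2-DMb2 (chr17:34143307-34151555), the second beta chain gene, measured 7.57 ± 0.663 CPM in NI and between 6.65 ± 2.52 (FT at 72 h) and 12.01 ± 1.39 CPM (HS at 1 week, n = 2) in the injured groups. Its log2 difference from NI at 1 week after HS was 0.63, with a 95% interval from -0.06 to 1.33 that reaches past 2-fold. It stood at 0.0388 to 0.0922 of H2-DMb1 within a sample. The 2 beta chain genes are near copies, and their promoter stretches above share the letter at 58 of 67 positions. The likeness of their transcripts was not measured, and whether reads were split or lost between them was not tested. Sign changes with scaling affected this family: the H2-DMa difference at 72 h after HS was 0.17 as deposited and -0.34 with all columns scaled to 1 total.

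Ciita (chr16:10480059-10528418, plus strand) lay lower at 72 h after HS and at 1 and 2 weeks after FT, by less than 2-fold as deposited. It measured 8.46, 11.2 and 8.63 CPM in NI and 4.03, 4.81 and 6.15 CPM at 72 h, 9.67 and 5.89 CPM at 1 week, and 5.93, 7.05 and 10.5 CPM at 2 weeks after HS. After FT it measured 10.9, 6.13 and 6.06 CPM at 72 h, 4.08, 6.89 and 4.97 CPM at 1 week, and 4.49, 5.75 and 7.03 CPM at 2 weeks. HS at 72 h and FT at 1 and 2 weeks lay wholly below NI. The log2 difference of -0.86 at 72 h after HS (SE 0.28) had an adjusted p of 0.0291 and was not called for its size. It was -0.79 at 1 week after FT (adjusted p = 0.110) and -0.68 at 2 weeks after FT (adjusted p = 0.184). With all columns scaled to 1 total, limma called Ciita lower in these 3 groups. The differences were then -1.34 (adjusted p = 0.0013), -1.12 (adjusted p = 0.0160) and -1.05 (adjusted p = 0.0193). At 1 week after HS, where H2-Aa and H2-Eb1 both lay at -1.04, Ciita differed by -0.29 (adjusted p = 0.808) and overlapped NI. At 2 weeks after HS, where Cd74 was above NI in 3 of 3 samples, Ciita differed from NI by -0.28 (95% interval -0.87 to 0.31).

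The B7 ligands differed from each other. Cd80 (chr16:38455561-38496335, plus strand) measured 10.2, 7.21 and 8.15 CPM in NI and 4.74, 3.21 and 3.92 CPM at 72 h after FT, with no overlap, and fell by 1.02 on the log2 scale (SE 0.28, adjusted p = 0.0114). The call rests on low counts, from 11 reads in the shallowest library, and was lost without NI replicate 1 (adjusted p = 0.0539) or, at a difference of -0.90, without FT 72 h replicate 2. At 72 h after HS it measured 5.09, 8.76 and 3.69 CPM, and the difference of -0.58 (SE 0.28, adjusted p = 0.135) did not pass. In the later groups the mean was 6.11 to 6.92 CPM, and none was called. Cd86 (chr16:36603869-36666081, minus strand) measured 305 ± 71.2 CPM in NI and between 342 ± 28.3 (FT at 72 h) and 451 ± 208 CPM (FT at 1 week) in the injured groups, and was not called. Its differences from NI were all above 0, from 0.19 to 0.45, with 95% intervals that reached from -0.42 to 1.02, and they changed sign at 72 h with all columns scaled to 1 total (-0.29 after HS and -0.28 after FT) and with quantile normalization. The ratio of Cd86 to Cd80 was 35.6 ± 2.31 (SD, n = 3) in NI and 89.6 ± 24.8 (n = 3) at 72 h after FT.

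FT and HS were compared at each time to ask whether severity changed class II expression. None of the 10 members was called at 72 h (0.00% of all genes), 1 week (0.00%) or 2 weeks (0.00%) by limma, and edgeR and DESeq2 also called 0. At an unadjusted p under 0.05 the counts were 0, 0 and 2 members, beside 3.00%, 4.31% and 2.61% of all genes. Both were at 2 weeks, where H2-Aa was lower after FT by -1.03 on the log2 scale (95% interval -1.88 to -0.18) and H2-Eb1 by -0.92 (-1.71 to -0.13). H2-Ab1 differed there by -1.03 (-2.17 to 0.11) and Cd74 by -0.77 (-1.59 to 0.05). The means at 2 weeks were 499 ± 188 CPM after HS and 247 ± 100.4 CPM after FT for H2-Aa, and the samples of both injuries overlapped for all 4 genes. At 72 h and 1 week the H2-Aa differences were 0.49 (-0.36 to 1.34) and -0.28 (-1.23 to 0.67), intervals that each reach past 2-fold in 1 direction.

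Of 8 genes that interferon gamma induces in parallel with Ciita, between 1 and 4 were higher after injury, also in HS at 2 weeks, where class II RNA was highest. In the HS groups 3 were higher at 72 h (13.4% of all genes called), 1 at 1 week (2.18%) and 4 at 2 weeks (3.23%). In the FT groups 4 were higher at 72 h (12.2%), 4 at 1 week (4.05%) and 4 at 2 weeks (4.88%). Their median log2 difference was 0.70, 0.61 and 1.20 in the successive HS groups and 0.85, 1.10 and 1.19 in the FT groups, against medians over all genes within 0.11 of 0. Iigp1, an immunity-related GTPase, rose by 3.27 at 1 week after FT, where H2-Eb1 fell. Gbp2, a guanylate-binding protein, rose by 1.28 at 72 h after HS and 1.82 at 1 week after FT. Ifi47, another such GTPase, rose by 1.25 and 1.47 in these groups, and Gbp3 by 1.04 at 72 h after FT. At 2 weeks after HS, Iigp1, Gbp2 and Ifi47 rose by 2.82, 2.13 and 1.64. Gbp3, Gbp5, Igtp and Irgm1 were called in none of the HS groups. Their differences at 72 h after HS were 0.92, 0.12, -0.24 and 0.48. Cxcl9, a T cell chemokine, rose after HS by 1.30 at 1 week and 2.91 at 2 weeks, and after FT by 2.33 and 3.24. At 72 h Cxcl9 was not called, with differences of -0.48 after HS and -0.00 after FT. None of the 7 promoter factors listed (Rfx5, Rfxap, Rfxank, Nfya, Nfyb, Nfyc and Creb1) was called in any of the 6 comparisons. All of these share the NI samples with the class II comparisons.

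**Figure D4:**
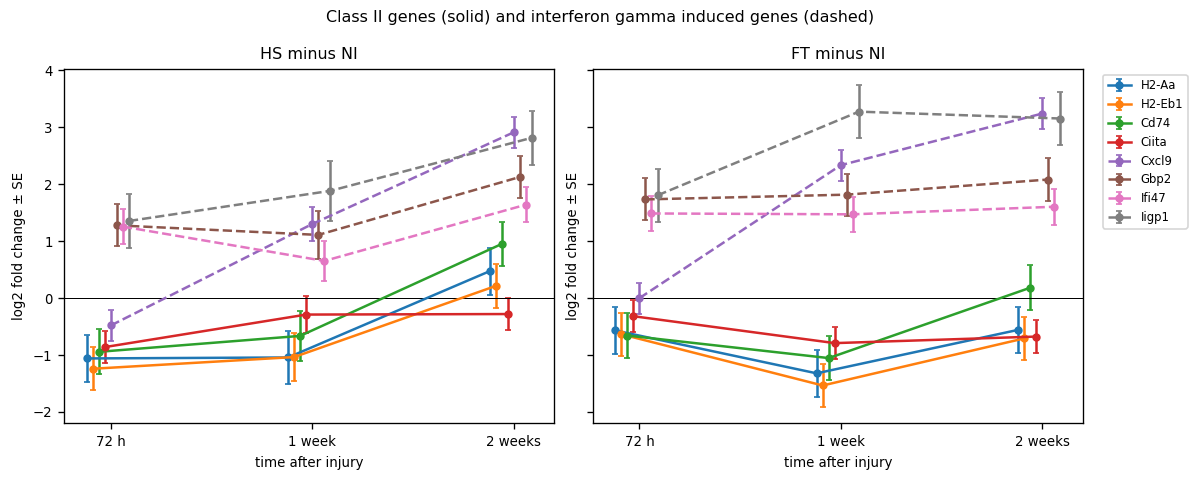
Log2 fold change from NI ± SE (vertical axes) at 72 h, 1 week and 2 weeks (horizontal axes) after HS (left) and FT (right), for 4 class II pathway genes (solid lines) and 4 interferon gamma induced genes (dashed lines). The dashed lines lie above the solid lines at every time, and Ciita stays below 0 in all 6 groups. Gbp3, Gbp5, Igtp and Irgm1 of the same list are not drawn. At 2 weeks after HS they lay at 0.53, 0.50, 0.38 and 0.76, below Cd74 at 0.95.

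Of 9 processing and turnover genes, Ctsb, Ctsl, Ctsd and Ifi30 rose at 72 h after both injuries. The HS groups had 4 higher at 72 h (13.4% of all genes called), 2 at 1 week (2.18%) and 3 at 2 weeks (3.23%). The FT groups had 4 (12.2%), 3 (4.05%) and 3 (4.88%), and none of the 9 was lower. The median log2 difference of the list was 0.57, 0.30 and 0.54 in the successive HS groups and 0.51, 0.53 and 0.71 in the FT groups. Ctsb rose by 1.98 at 72 h after HS and 2.12 at 72 h after FT, Ctsl by 1.59 and 1.61, Ctsd by 1.60 and 1.74, all lysosomal cathepsins, and Ifi30, the thiol reductase of antigen processing, by 1.36 and 1.70. Ctss, the cathepsin that trims the invariant chain in antigen-presenting cells, was not called, with differences from 0.05 to 0.77, and nor was Lgmn, another lysosomal protease, with differences from -0.08 to 0.57. March1, a ubiquitin ligase that removes class II from the surface, was not called either, with differences from -0.76 to -0.52. The DM inhibitor genes H2-Oa and H2-Ob and the chain gene H2-Eb2 were not called (3 of 3 measured, with E alpha not analysed here).

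Of 9 other costimulatory and B7 family genes measured, between 1 and 4 were higher after injury. The HS groups had 2 higher at 72 h (13.4% of all genes called), 3 at 1 week (2.18%) and 4 at 2 weeks (3.23%). The FT groups had 1 (12.2%), 1 (4.05%) and 4 (4.88%), and none of the 9 was lower. At 72 h these counts are near the share of all genes called. The median log2 difference of the list was 0.60, 0.51 and 1.02 in the successive HS groups and 0.36, 0.66 and 1.10 in the FT groups. Icosl, Pdcd1lg2, Cd276 and Icam1 were called in none of the 6 groups, Icosl lying at -0.78 (adjusted p = 0.00968) at 72 h after FT, under 2-fold. Cd274, which encodes PD-L1, the ligand of the inhibitory receptor PD-1, rose after HS by 1.56 at 1 week and 1.88 at 2 weeks, and after FT by 1.35 and 1.85. Cd40, the receptor of T cell CD40 ligand, rose by 1.14 at 72 h and 1.16 at 2 weeks after HS, and by 1.61 at 2 weeks after FT. Cd83, which stabilizes class II and CD86 at the surface, rose by 1.43 at 1 week after HS and 1.10 at 2 weeks after FT. Cd48 rose by 1.09 and 1.22 at 2 weeks after HS and FT, and Tnfsf9, the ligand of the receptor 4-1BB on T cells, by 1.64 at 72 h and 2.23 at 1 week after HS.

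Markers of other class II bearing cells were measured beside these results. The summed level of 8 border-associated macrophage markers was 209.8 to 224 CPM in NI, 204 to 248 at 72 h, 139 to 142 at 1 week and 87.2 to 91.9 CPM at 2 weeks after HS, so it was lowest where Cd74 was highest. After FT it was 244 to 382, 200.2 to 253 and 94.0 to 105 CPM. Of these 8 genes, 6 were lower and 1 higher at 2 weeks after HS (3.23% of all genes called) and 6 were lower and 2 higher at 2 weeks after FT (4.88%). Lyve1, the receptor that marks perivascular and meningeal macrophages, fell by 3.04 and 2.95 in these groups. The list did not move as 1: at 1 week after HS 3 of the 8 were lower and 2 higher (2.18% of all genes called). The 2 higher were Folr2, by 2.02, and Siglec1, by 1.41. Folr2 was also higher at 72 h after HS, by 2.63, where none of the 8 was lower. The 8 dendritic cell markers summed to 41.8 to 50.2 CPM in NI and to 170 to 242 and 177 to 190.3 CPM at 2 weeks after HS and FT, and the only one called was Itgax, the integrin CD11c that activated microglia also carry, higher by 3.39 and 3.29. Flt3, Zbtb46, Xcr1, Clec9a, Cd209a, Ccr7 and Batf3 were not called in the 6 comparisons. The 6 monocyte markers summed to 21.7 to 27.9 CPM in NI, 44.6 to 116 at 72 h after HS and 76.1 to 236 at 72 h after FT, and 2 and 4 of them were higher at that time (13.4% and 12.2% of all genes called). The 5 B cell markers summed to 31.2 to 55.6 CPM over all samples, most of it Cd79b, and Ms4a1, Cd79a and Pax5 were each at or under 2.89 CPM. The 6 T cell markers summed to 6.46 to 11.9 CPM. No B or T cell marker was called, and Cd79a and Cd3d were each at 0 in 1 library. The 8 microglia markers summed to 15509 to 33456 CPM, with Tmem119 lower and Fcrls higher at 72 h after both injuries, Fcrls higher at 1 week after FT and P2ry12 lower at 2 weeks after FT. The part of these cells in the class II levels was not tested.

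**Figure D5:**
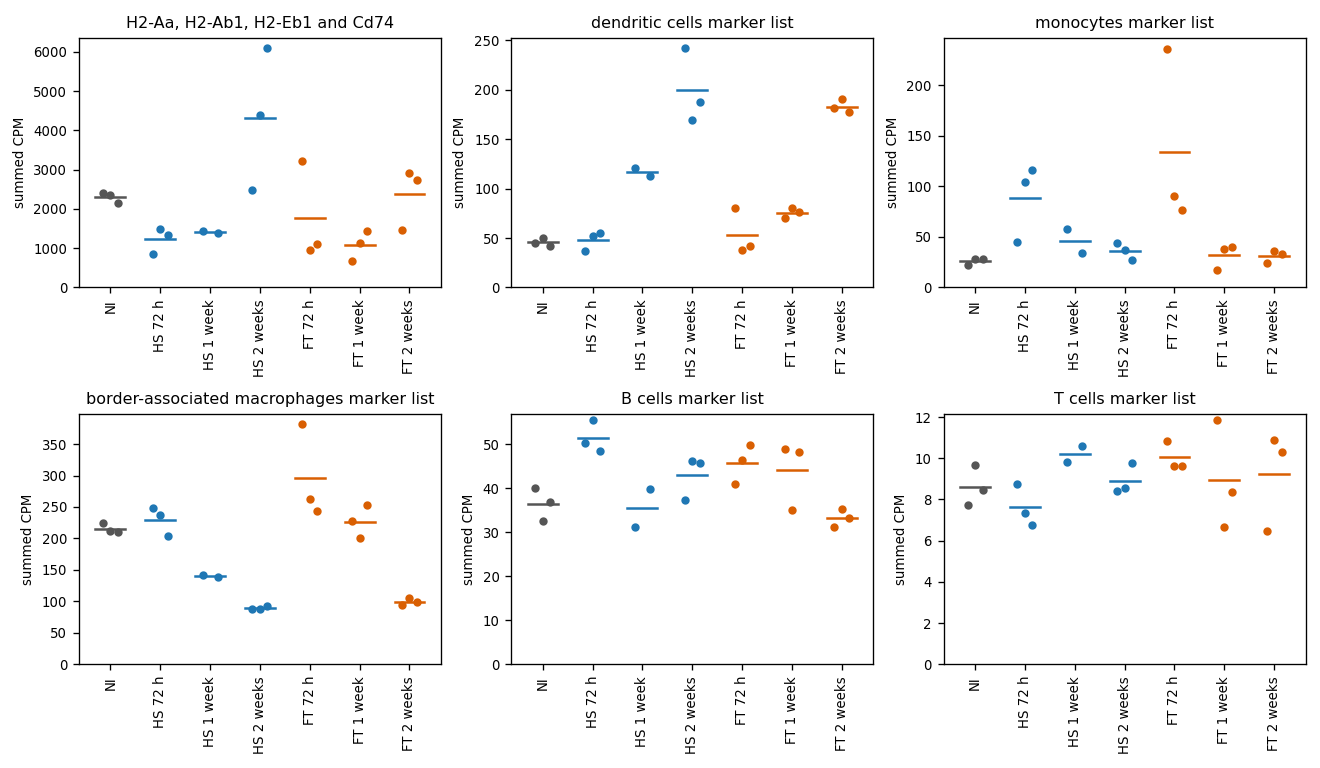
Summed CPM (vertical axes, starting at 0) of H2-Aa, H2-Ab1, H2-Eb1 and Cd74 and of 5 marker lists, by sample and group (horizontal axes), with points for samples and bars for group means. The border-associated macrophage sum is lowest at 2 weeks after HS (87.2 to 91.9 CPM), where the class II sum is highest, and FT 72 h replicate 1 has the highest monocyte sum (236 CPM).

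Within groups H2-Aa, H2-Eb1 and Cd74 moved together from library to library. The deviations of H2-Aa from its group means correlated with those of H2-Eb1 at r = 0.99, of Cd74 at 0.95, of Ciita at 0.69 and of H2-Ab1 at 0.66 over the 20 samples. With those of H2-DMb1 the value was 0.55, of H2-DMb2 0.54, of H2-DMa 0.45, of Cd80 0.34 and of Cd86 0.31. H2-Ab1 followed H2-DMb2 (0.67) and H2-DMb1 (0.62) about as closely as H2-Aa. These samples share library scaling and depth, and the values are a description. The genes outside the pathway whose log2 level over the 20 samples was most like the mean of H2-Aa, H2-Ab1, H2-Eb1 and Cd74 were Rnase6 (r = 0.76), Ppp1r3b (0.75), Nop56 (0.75), Tnfrsf12a (0.73) and Rassf1 (0.72), out of 14051 genes with a mean of at least 1 CPM. Those most like Ciita were Appl1 (0.74), Ktn1 (0.74) and Cep152 (0.73). Those most like Cd80 were Abcc5 (0.85), LOC106740 (0.79) and Rbm12b2 (0.79), and those most like Cd86 were Alg11 (0.94), Tmem206 (0.94) and Cd84 (0.92).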

How the data were processed

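Polyadenylated RNA of sorted eGFP-high cells was made into libraries with a SMARTer Ultra Low and Nextera protocol and sequenced on an Illumina instrument. Per the study's methods and the submitters' processing notes, the authors mapped reads to mm10 (GRCm38) with TopHat2 2.0.9, counted them per gene with HTSeq 0.5.4p3, dropped genes with few reads and normalized with edgeR 3.3.6. The signal values the authors deposited are those normalized values, in CPM of a scaled library size. Of 336200 values, 100% were whole multiples of the value of 1 read within 0.001 of a step, so whole reads were recovered. Column totals ran from 777426 to 830481 CPM in NI, and the injured samples had totals of 878070 to 1202190 CPM. All 20 columns matched a sample, with 0 columns left over. The counting setting for strand is not given in the sources used here, so overlapping and antisense genes cannot be separated.

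log2(CPM + 0.5) was fitted with limma 3.58.1 in R 4.3.3, with the trend option, all 20 samples and a mean for each group, and 15 comparisons were made. No filter was applied beyond that of the authors. Alternatives used a pseudocount of 0.1 or 1 CPM, a filter that kept genes reaching 1 CPM in 2 or more samples, fits of just the 2 groups concerned, 3 other scalings, no fold limit, a replicate block, leaving out each sample, and edgeR 4.0.16 (quasi-likelihood and likelihood ratio tests) and DESeq2 1.42.0 on the recovered reads. The limma script was tested on simulated data. The shallowest library, of 3872918 reads, gives 0.292 CPM per read, so a count of 0 allows up to 0.876 CPM (3 reads); such limits cover counting error only.

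The members and lists were chosen with earlier results of these data known. The text names all 10 members, listed genes called against NI, and genes most like a member by Pearson correlation. Positions are from GENCODE vM21 on GRCm38, lengths from the longest APPRIS principal transcript, and promoters from RefSeq on GRCm38.p6. Spi1 and Chil3 are listed as Sfpi1 and Chi3l3, and Tnfsf4 and Cd70 are not analysed here. Some listed genes are not reported here.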

Additional observations from a re-analysis of the deposited data

How the results depend on the processing

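No call changed direction under any alternative. Of 1800 member differences recomputed with another fit or scaling, 1771 kept their side of the threshold, 28 passed newly and 1 was lost. The scaling mattered most, since with all columns scaled to 1 total the median of all genes moved to -0.52 and -0.48 at 72 h after HS and FT. The members called against NI then numbered 5 at 72 h after HS, 4 at 72 h after FT, 4 at 1 week after FT and 2 at 2 weeks after FT, against 1, 1, 1 and 0 as deposited, all lower, where 22.7%, 19.9%, 5.39% and 6.58% of all genes were called, against 13.4%, 12.2%, 4.05% and 4.88% as deposited, and 14 of the 60 differences from NI changed sign, none of them called. With quantile normalization the first 3 of these numbered 3 each (11.4%, 10.6% and 3.85% of all genes). With only the 2 groups compared the counts were 2 at 72 h and 2 at 1 week after HS and 2 at 1 week after FT. Without the fold limit Ciita joined at 72 h after HS, for a count of 2. With 1 CPM added the Cd80 call at 72 h after FT was lost, for a count of 0. DESeq2 and the edgeR likelihood ratio test called 2 at 1 week after FT, H2-Aa being the other. The likelihood ratio test called 5.29% of all genes there. The limma count at 1 week after FT was also 2 with a replicate block. Shares of all genes are not reported here for DESeq2, the replicate block or the fits of 2 groups. Nor are they for the fits with no fold limit or with 1 CPM added. The block changed the call of no other member. Deviations from group means correlated from -0.426 to 0.444 (median 0.00171) between same-numbered samples of different groups. Between other-numbered samples they correlated from -0.441 to 0.429 (median 0.000654). Same-numbered samples were thus no more alike than others, which does not exclude pairing of some samples.

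Leaving out 1 sample gave 0 to 2 members at 72 h after HS, 0 to 3 at 72 h after FT, 0 to 2 at 1 week after FT and 1 to 3 from 72 h to 2 weeks after HS. It gave 0 to 1 from 72 h to 1 week after FT (H2-Ab1 without FT 72 h replicate 2, -1.63, adjusted p = 0.0473) and 0 to 1 from 72 h to 2 weeks after FT (Cd74 without FT 72 h replicate 1), and 0 throughout in the other 9. Where HS at 1 week kept 1 sample, that sample is assumed to vary like the other groups. Shares of all genes called with a sample left out are not reported here. Depth limits Cd80, Ciita and H2-DMb2, with 11, 21 and 16 reads in their lowest library. The cause of these changes was not tested.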
